A study of Homo sapiens with 30 samples.

Results

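The comparison described here asked how nascent transcription in A549, an established line from a human lung adenocarcinoma, differed between 7 days and 3 h of inhibition of the arginine methyltransferase PRMT5 when both arms had dexamethasone for 3 h. It used 4 of the 30 PRO-seq libraries of the study, 2 in each arm. The 7-day arm had 1 µM GSK591, a PRMT5 inhibitor, for 7 days and then 100 nM dexamethasone (Dex), a synthetic glucocorticoid, for 3 h. The 3 h arm had 1 µM GSK591 and 100 nM Dex together for 3 h. All groups, the untreated one included, shared a final DMSO concentration of 0.01%. The untreated libraries carry a time of 15 min in their titles, so they are not matched in time to the 3 h or 7-day groups. The arms were taken by their labels and every gene of the count table was eligible. Of 58780 genes, 40538 had a count in these 4 libraries and 22919 passed the filter on low counts and were tested. The comparisons set beside it use other libraries. They are 7 days of 1 µM GSK591 without Dex against untreated cells and 100 nM Dex for 3 h against untreated cells. The last is 7 days of MS023 (1 µM), which inhibits type I arginine methyltransferases, then Dex for 3 h against MS023 and Dex together for 3 h. A549 is a single tumour line, and the labels do not say whether the 2 samples of a group came from separate cultures, so p-values measure only the spread between these samples.

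PRO-seq labels RNA at the active site of engaged polymerases in permeabilised cells, so counts over a gene follow the number of transcribing polymerases rather than the amount of mature RNA. PRMT5, with its partner WDR77 (MEP50), places symmetric dimethyl marks on arginines of histones and of the Sm proteins that form the core of spliceosomal small ribonucleoproteins, among them SNRPB, the protein named in the title of the study. Dex binds the glucocorticoid receptor, encoded by NR3C1, which then activates genes such as FKBP5, TSC22D3 and PER1 and represses a set of inflammatory genes. Replication-dependent histone genes lie in clusters, lack introns and are transcribed mainly in S phase, which makes them, with replication and mitotic genes, a readout of how much of a culture is cycling.

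The 4 libraries held 9486370 to 11934842 counts, of which 71.1% to 76.0% fell on mitochondrial genes and 2707054 to 3038755 on nuclear genes. Replicates correlated at 0.983 in the 3 h group and 0.969 in the 7-day group (Pearson r of log2 CPM over 11117 genes, which are not independent). All levels below are CPM, counts relative to the library size after TMM scaling, which are not corrected for gene length, so they are compared between libraries and not between genes. Each fold change is a log2 value of 7 days over 3 h with its standard error from the fit (2 libraries per group), and a gene is called where the adjusted p of edgeR's quasi-likelihood test is below 0.05. Where a call is said to be lost without a library, losses under other settings are not always listed. The 10 markers of A549 summed to 1433 and 1442 CPM in the 3 h libraries and 1016 and 1263 CPM in the 7-day libraries, and KRT8, KRT7 and KRT18 were lower while CDH1 was higher. Summed levels of haematopoietic markers were 4.39 and 5.10 against 8.05 and 6.76 CPM. Those of endothelial markers were 1.02 and 0.520 against 1.43 and 2.41 CPM, and of fibroblast markers 5.72 and 3.33 against 5.73 and 5.39 CPM. No gene of these marker lists was at 0 in all 30 libraries, and 2 of 6 haematopoietic, 2 of 5 endothelial and 2 of 6 fibroblast markers had enough counts to be tested. Their part in the results was not tested.

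Most histone genes, 22 of 36 DNA replication genes, 26 of 38 mitotic genes and 14 of 25 genes of homologous recombination and Fanconi repair were called lower after 7 days of GSK591, and 11 of 26 p53 targets were called higher. In all, 2806 genes were called (12.2% of those tested), 1351 higher (5.89%) and 1455 lower (6.35%) at 7 days, and 5690 had an unadjusted p below 0.05. The median fold change of all genes tested was 0.01. The falls included genes with more signal than the rises: protein-coding genes called lower had a median of 17.8 CPM over the 4 libraries, those called higher 7.61 CPM, and all tested protein-coding genes 7.98 CPM. Genes called lower were shorter, with a median length of 20.2 kb among the protein-coding ones against 26.8 kb among those called higher and 31.2 kb among all tested. Genes with a single exon made up 5.63% of the protein-coding genes called lower, 3.94% of those called higher and 3.19% of all tested. Those called lower numbered 65, and 53 protein-coding histone genes, which as a class lack introns, were also called lower. The overlap of both sets was not counted, so whether the single-exon share is separate from the fall of the histone genes is not known. Scaling by total counts alone, mitochondrial counts included, called 1102 genes, of which 35.5% were higher, against 48.1% of the calls with TMM, and moved the median of all genes to -0.09. Exons of 1238 of the called genes overlap those of another gene, and the sources used here do not state whether counting used strand, so reads there cannot be assigned with certainty. Among genes described below this holds for CPM, MDM2, GFAP, NEFL, FAS, KIFC1, CKAP2L, HIST1H2AL, CLSPN, E2F8, RRM2, CENPA, PRMT5, WDR77, SNRPB, TSC22D3 and PER1, among others.

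**Figure D1:**
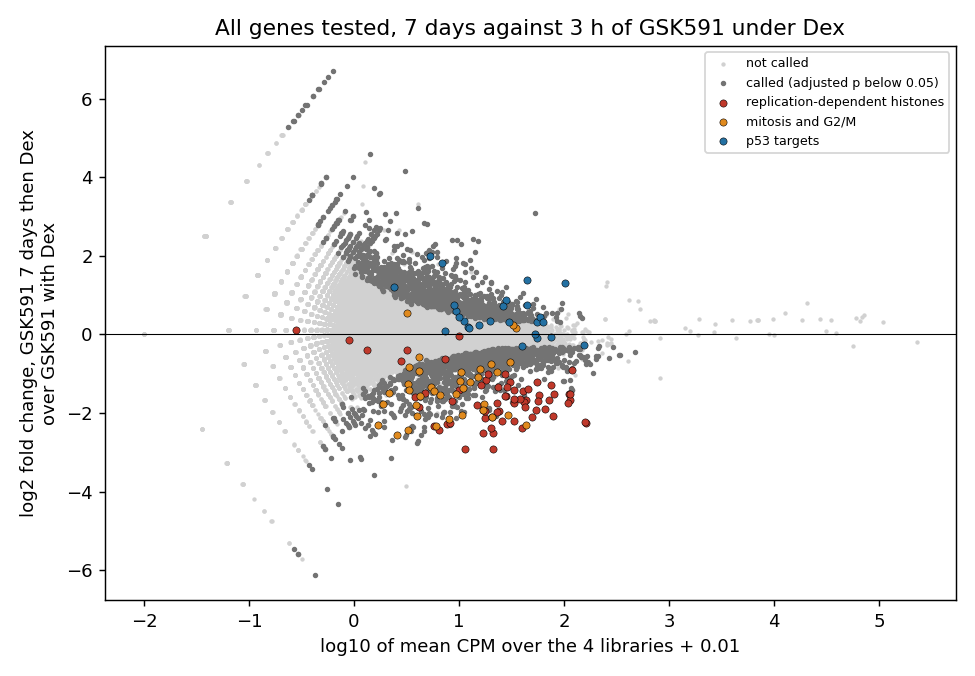
Log2 fold change of every gene tested (7 days over 3 h of GSK591, both with Dex for 3 h) against the log10 of its mean CPM over the 4 libraries plus 0.01, with called genes in dark grey. Histone genes (red) lie almost all below 0, mitotic genes (orange) mostly so, and p53 targets (blue) mostly above. The rays at the left are genes with few counts, whose fitted folds depend on the prior count.

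The replication-dependent histone genes fell as a group. Of 90 genes on the list, 66 passed the filter, and 60 were called lower and 0 higher, beside 6.35% of all genes called lower. Their median was -1.67, and their summed level was 3684 and 3990 CPM in the 3 h libraries and 1258 and 1117 CPM in the 7-day libraries. Every class took part: 4 of 4 genes of the linker histone H1, 12 of 12 of H2A, 14 of 15 of H2B, 10 of 12 of H3 and 13 of 13 of H4 were called lower, with class medians from -1.99 for H1 to -1.64 for H4. The 6 members not called were HIST1H2BF, HIST1H3E, HIST1H3PS1, HIST2H2BB, HIST3H2BA and HIST3H3. Among them HIST1H3E had the highest level, 11.3 and 8.84 CPM at 3 h and 9.48 and 10.2 CPM at 7 days. Many histone genes are near-identical copies, so reads may be shared or lost among them and the values of single members are uncertain.

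HIST1H2BB, a core H2B gene at chromosome 6 (26043277 to 26043657, minus strand, GRCh38), had the largest fall of the protein-coding genes described here, with 20.6 and 19.6 CPM at 3 h and 2.54 and 2.75 CPM at 7 days (log2 fold change -2.92 ± 0.21, adjusted p = 2.5e-15). HIST1H1B encodes the linker histone H1.5 and had 32.5 and 41.1 CPM at 3 h and 3.97 and 5.85 CPM at 7 days (log2 fold change -2.91 ± 0.23, adjusted p = 1.71e-09). HIST1H3B, a canonical H3 gene, had 63.7 and 69.7 CPM at 3 h and 12.7 and 13.0 CPM at 7 days (log2 fold change -2.38 ± 0.12, adjusted p = 8.82e-21). In HIST1H2BB and HIST1H3B the 2 replicates of a group lay close together, while those of HIST1H1B differed more. In all 3 genes the groups were several-fold apart. Large falls and groups that did not overlap were conditions of their choice. HIST1H4I had 24.6 and 32.5 CPM at 3 h and 5.51 and 4.47 CPM at 7 days (log2 fold change -2.51 ± 0.18, adjusted p = 3.73e-15), and HIST1H2AJ had 32.1 and 39.4 CPM at 3 h and 6.73 and 5.85 CPM at 7 days (log2 fold change -2.50 ± 0.17, adjusted p = 1.52e-16). HIST1H2AB and HIST1H2AL, both H2A genes, fell by 2.37 and 2.33 on the log2 scale, and the histone pseudogene HIST1H4PS1 by 2.42. Between 59 and 60 members were called lower under each alternative setting.

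**Figure D2:**
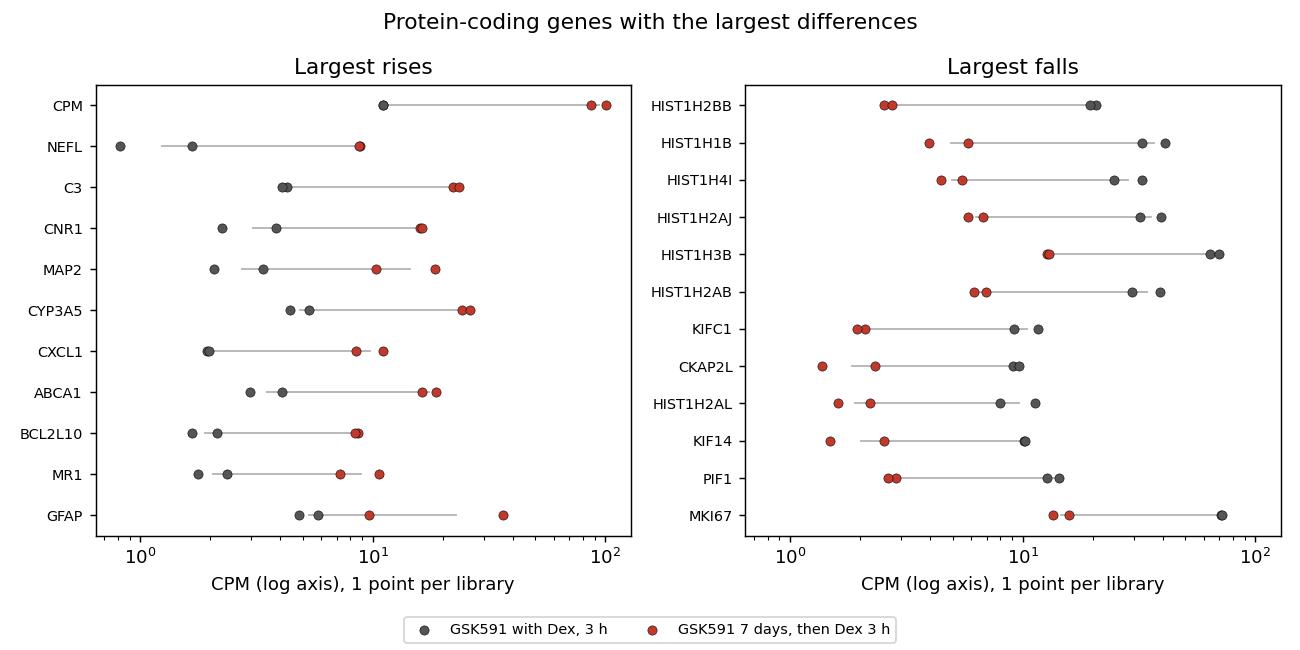
Level of 11 of the 12 protein-coding genes with the largest rises (left) and the 12 with the largest falls (right) among those called, averaging 5 CPM or more and not overlapping between groups, in each of the 4 libraries (log axis); a grey line joins the group means. The groups are apart in every gene shown because the choice required it. GFAP is the gene in which the 7-day libraries differ most, 9.59 and 36.1 CPM.

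Promoters of 5 of the genes that fell are shown because histone and cell cycle genes are known for short promoter letters that recur within a group, the CCAAT box, the TATA box in histone genes and the cell cycle homology region, TTTGAA, in mitotic genes. Each runs from 250 bases before to 50 bases after the start of the gene, from RefSeq on GRCh38.p14, 5′ to 3′ on the strand of the gene, with capitals marking 4 motifs on either strand. They are the CCAAT box, the homology region just named, the TATA box searched as TATAAA, and the E2F motif searched as TTTNGCGC. In MKI67 one match of the homology region overlaps a CCAAT box on the other strand. HIST1H2BB (H2BC3, chromosome 6, 26043664 to 26043963), HIST1H3B (H3C2, chromosome 6, 26032050 to 26032349), KIF14 (chromosome 1, 200620702 to 200621001), MKI67 (chromosome 10, 128126374 to 128126673) and CLSPN (chromosome 1, 35769929 to 35770228) all lie on the minus strand.
HIST1H2BB: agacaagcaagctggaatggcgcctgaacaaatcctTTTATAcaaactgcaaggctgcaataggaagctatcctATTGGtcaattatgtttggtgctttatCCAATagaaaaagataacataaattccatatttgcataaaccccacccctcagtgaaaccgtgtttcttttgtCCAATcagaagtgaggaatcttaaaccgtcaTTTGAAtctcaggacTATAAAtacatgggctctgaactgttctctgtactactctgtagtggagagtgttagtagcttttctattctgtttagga
HIST1H3B: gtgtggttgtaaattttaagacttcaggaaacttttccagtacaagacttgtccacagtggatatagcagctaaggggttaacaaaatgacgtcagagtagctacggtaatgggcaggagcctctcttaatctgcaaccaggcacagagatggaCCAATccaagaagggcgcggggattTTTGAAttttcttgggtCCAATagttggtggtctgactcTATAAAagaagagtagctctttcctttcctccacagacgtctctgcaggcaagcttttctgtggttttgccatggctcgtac
KIF14: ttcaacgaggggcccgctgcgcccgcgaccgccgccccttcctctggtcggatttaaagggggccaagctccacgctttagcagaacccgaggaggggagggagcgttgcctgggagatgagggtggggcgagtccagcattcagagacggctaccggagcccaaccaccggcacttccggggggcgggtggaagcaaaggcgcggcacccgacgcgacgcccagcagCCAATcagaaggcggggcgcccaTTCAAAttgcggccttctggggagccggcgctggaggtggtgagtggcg
MKI67: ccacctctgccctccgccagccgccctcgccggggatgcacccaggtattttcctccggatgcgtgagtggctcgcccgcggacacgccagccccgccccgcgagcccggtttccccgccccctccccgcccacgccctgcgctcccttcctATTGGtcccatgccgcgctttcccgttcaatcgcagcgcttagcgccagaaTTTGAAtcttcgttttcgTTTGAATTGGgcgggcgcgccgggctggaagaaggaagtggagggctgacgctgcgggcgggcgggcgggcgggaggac
CLSPN: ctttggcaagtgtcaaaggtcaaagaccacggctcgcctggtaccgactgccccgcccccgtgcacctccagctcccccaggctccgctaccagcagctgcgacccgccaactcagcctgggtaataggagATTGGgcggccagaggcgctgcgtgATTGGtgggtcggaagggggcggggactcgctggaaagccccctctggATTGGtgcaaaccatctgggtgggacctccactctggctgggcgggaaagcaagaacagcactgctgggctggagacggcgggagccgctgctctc

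Over the histone list, CCAAT was found in 42 of 51 (82.4%) promoters held by the table and TATAAA in 36 of 51 (70.6%). Among all 27305 promoters of the table, 1 per gene, the shares were 35.7% and 12.0%. TTTGAA was found in 22 of 32 (68.8%) promoters of the mitotic list, against 15.4% of all promoters, and TTTNGCGC in 14 of 31 (45.2%) of the replication list, against 1.83%. CCAAT was found in 24 of 32 (75.0%) promoters of the mitotic list and 19 of 31 (61.3%) of the replication list, but also in 12 of 21 (57.1%) of the p53 targets. Of the 26 p53 targets tested, 11 were called higher, and how many of these held CCAAT was not counted. Over all genes called lower, TTTGAA stood in 170 of 1023 (16.6%) promoters and CCAAT in 449 of 1023 (43.9%), and over all called higher in 67 of 860 (7.79%) and 286 of 860 (33.3%). Among the promoters of all genes tested, 10.2% held TTTGAA and 35.6% CCAAT. Of 22919 genes tested, 13701 matched a promoter. These matches describe letters in a window and are not measured binding.

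Genes of mitosis and the G2/M phase fell with the histones: 26 of 38 were called lower (68.4%, beside 6.35% of all genes) and 0 higher, with a median of -1.47. MKI67, the proliferation antigen Ki-67, had 71.6 and 71.9 CPM at 3 h and 13.5 and 15.8 CPM at 7 days (log2 fold change -2.29 ± 0.45, adjusted p = 0.00278). KIF14, a mitotic kinesin, had 10.1 and 10.2 CPM at 3 h and 2.54 and 1.49 CPM at 7 days (log2 fold change -2.32 ± 0.54, adjusted p = 0.00846). NEK2, a centrosome kinase, had 3.88 and 4.78 CPM at 3 h and 0.551 and 0.917 CPM at 7 days (log2 fold change -2.55 ± 0.42, adjusted p = 1.23e-05), and KIF11, the spindle motor Eg5, had 11.6 and 14.4 CPM at 3 h and 2.54 and 3.32 CPM at 7 days (log2 fold change -2.15 ± 0.54, adjusted p = 0.0148). In each of these genes both 7-day libraries lay far below both 3 h libraries. MKI67 and KIF14 were chosen on condition that the groups did not overlap, and NEK2 and KIF11 for large called changes. Outside the list, KIFC1, a minus-end kinesin, fell by 2.36, CKAP2L, a spindle protein, by 2.33 and PIF1, a DNA helicase, by 2.30. CENPA, the centromeric histone H3 variant, was not called and had the highest level of the members not called, 29.3 and 36.4 against 35.5 and 38.3 CPM in the 3 h and 7-day libraries. The summed level of the list was 636 and 649 CPM at 3 h and 279 and 280 CPM at 7 days. In bulk libraries such as these, fewer cells in a phase of the cycle and less transcription per cell cannot be told apart. One library outside the comparison, replicate 2 of MS023 with Dex for 3 h, had 1235 CPM for this list against 626 CPM in its replicate and it enters the spread that all groups share. Fitted without that library, 33 of the 38 mitotic genes were called lower and 3210 genes in all. The call of KIF14 was lost without 7-day replicate 2 and that of KIF11 without either 7-day library or 3 h replicate 2, with fold changes of -2.76 to -2.00 and -2.35 to -1.97 over all settings.

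Of the DNA replication and G1/S genes, 22 of 36 were called lower (61.1%, beside 6.35% of all genes) and 0 higher (median -0.91). RRM2, the regulated subunit of ribonucleotide reductase, had 50.2 and 48.7 CPM at 3 h and 16.0 and 14.2 CPM at 7 days (log2 fold change -1.71 ± 0.12, adjusted p = 2.76e-15). MCM5, part of the replicative helicase, had 14.6 and 15.6 CPM at 3 h and 4.30 and 4.13 CPM at 7 days (log2 fold change -1.84 ± 0.18, adjusted p = 6.58e-11). E2F8, a repressive E2F factor, had 8.58 and 5.30 CPM at 3 h and 1.87 and 1.72 CPM at 7 days (log2 fold change -1.94 ± 0.30, adjusted p = 3.48e-06). CLSPN, the checkpoint adaptor claspin, had 10.0 and 9.57 CPM at 3 h and 1.76 and 2.98 CPM at 7 days (log2 fold change -2.04 ± 0.50, adjusted p = 0.0122), a call lost without 7-day replicate 1 or either 3 h library (-2.47 to -1.72 over all settings). CDT1, a replication licensing factor, was not called, at 53.4 and 50.6 against 52.5 and 41.5 CPM.

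Homologous recombination and Fanconi anaemia genes followed, with 14 of 25 called lower (56.0%, beside 6.35% of all genes), 0 higher and a median of -1.05. BARD1, the partner of BRCA1, had 8.17 and 7.39 CPM at 3 h and 1.43 and 1.38 CPM at 7 days (log2 fold change -2.46 ± 0.32, adjusted p = 1.44e-07). EXO1, a resection nuclease, fell by 2.04, XRCC2, a recombination factor, by 2.02 and BLM, a RecQ helicase, by 1.69. ATM, the double-strand break kinase, had 16.6 and 17.9 against 15.8 and 17.1 CPM and was not called.

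Of the p53 targets, 11 of 26 were called higher and 0 lower, beside 5.89% of all genes called higher, and the median was 0.33. FAS, a death receptor, had 2.55 and 1.66 CPM at 3 h and 9.59 and 7.22 CPM at 7 days (log2 fold change 1.99 ± 0.28, adjusted p = 7.92e-07). SPATA18, a mitochondrial quality control gene, had 2.86 and 3.12 CPM at 3 h and 10.6 and 10.7 CPM at 7 days (log2 fold change 1.83 ± 0.25, adjusted p = 2.38e-07), and BTG2, an antiproliferative gene, had 22.7 and 26.4 CPM at 3 h and 69.9 and 58.0 CPM at 7 days (log2 fold change 1.38 ± 0.15, adjusted p = 1.44e-08). MDM2, which encodes the ubiquitin ligase of p53, had 59.4 and 57.2 CPM at 3 h and 130.1 and 159 CPM at 7 days (log2 fold change 1.31 ± 0.11, adjusted p = 3.59e-13). CDKN1A, the cell cycle inhibitor p21, had 33.1 and 33.1 against 56.0 and 55.6 CPM and rose by 0.75 on the log2 scale, a gene singled out after its value was seen, whose call was lost with total counts as the only scaling. TP53I3 had the highest level of the 15 members that were not called, 168 and 169 against 138 and 139.7 CPM. The summed level of the list was 820 and 856 CPM at 3 h and 1068 and 1058 CPM at 7 days, so the groups did not overlap. The count ranged from 5 members called higher when total counts were the only scaling to 13 without replicate 2 of MS023 with Dex for 3 h, a fit that also called TP53I3 lower.

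The gene CPM, which encodes the membrane peptidase carboxypeptidase M, had the largest rise of the called protein-coding genes averaging 5 or more counts on the CPM scale, with 11.0 and 11.0 CPM at 3 h and 86.9 and 101 CPM at 7 days (log2 fold change 3.09 ± 0.16, adjusted p = 8.82e-21). The gene lies on chromosome 12 (68842197 to 68971570, minus strand). It overlaps MDM2 (68808176 to 68850686, plus strand), so reads in the overlap may belong to either. C3, the central complement component, had 4.29 and 4.06 CPM at 3 h and 22.1 and 23.4 CPM at 7 days (log2 fold change 2.44 ± 0.24, adjusted p = 4.15e-11), and CXCL1, a neutrophil chemokine, had 1.94 and 1.98 CPM at 3 h and 11.0 and 8.48 CPM at 7 days (log2 fold change 2.31 ± 0.25, adjusted p = 7.15e-10). ABCA1, the cholesterol exporter, had 2.96 and 4.06 CPM at 3 h and 16.2 and 18.7 CPM at 7 days (log2 fold change 2.31 ± 0.26, adjusted p = 2.56e-08). AL359182.1, an antisense gene (104927553 to 104928892, plus strand), rose by 2.26. Its span overlaps that of ABCA1 (104781002 to 104928237, minus strand), though not in exons. With the use of strand unknown, its rise may not be separate from that of ABCA1. CYP3A5, a drug-metabolising cytochrome, had 4.39 and 5.30 CPM at 3 h and 24.3 and 26.3 CPM at 7 days (log2 fold change 2.38 ± 0.19, adjusted p = 4.7e-14). CNR1, the cannabinoid receptor, had 2.25 and 3.85 CPM at 3 h and 16.0 and 16.3 CPM at 7 days (log2 fold change 2.40 ± 0.27, adjusted p = 1.72e-09), and BCL2L10, a BCL2 family member, had 2.14 and 1.66 CPM at 3 h and 8.60 and 8.37 CPM at 7 days (log2 fold change 2.15 ± 0.27, adjusted p = 3.76e-08). In all 7 of these protein-coding genes both 7-day libraries exceeded both 3 h libraries by several-fold. They were chosen for large rises and groups that did not overlap, so this separation is no further support.

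The neuronal and glial genes NEFL (a neurofilament subunit), MAP2 (a microtubule-associated protein) and GFAP (an intermediate filament of astrocytes) were also among the 12 largest rises. NEFL had 0.817 and 1.66 CPM at 3 h and 8.82 and 8.71 CPM at 7 days (log2 fold change 2.81 ± 0.41, adjusted p = 9.48e-06). MAP2 had 3.37 and 2.08 CPM at 3 h and 10.4 and 18.5 CPM at 7 days (log2 fold change 2.39 ± 0.48, adjusted p = 0.00330) and lost its call without 3 h replicate 2 (1.92 to 2.78 over all settings). GFAP had 4.80 and 5.82 CPM at 3 h and 9.59 and 36.1 CPM at 7 days (log2 fold change 2.10 ± 0.53, adjusted p = 0.0159), and its call was lost without 7-day replicate 2 or either 3 h library and in the fit of the compared groups alone (0.85 to 2.76). MR1, an antigen-presenting molecule among the same 12, rose by 2.11. Among genes of other types, the pseudogene AC011247.3 rose by 2.09 and the miRNA gene MIR3189 by 1.87. AC020658.3, a sense-intronic gene, fell by 2.00 and AC239868.1, an antisense gene, by 1.97. Overlap was checked for exons only. Reads at MIR3189 (chromosome 19, 18386562 to 18386634) or at AC020658.3 may come from a longer gene around them, which was not checked.

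Both arms had Dex, and 7 of 28 glucocorticoid-induced genes (25.0%) and 4 of 18 glucocorticoid-repressed genes (22.2%) were called between them, beside 12.2% of all genes. Of the induced genes, 2 were called higher and 5 lower (7.14% and 17.9%, beside 5.89% and 6.35% of all genes), with a median of -0.10. FKBP5, a receptor co-chaperone, had 43.4 and 41.0 CPM at 3 h and 33.6 and 37.4 CPM at 7 days (log2 fold change -0.25 ± 0.21, adjusted p = 0.517), and TSC22D3 (GILZ) had 117 and 124 CPM at 3 h and 121 and 108 CPM at 7 days (log2 fold change -0.07 ± 0.11, adjusted p = 0.754). Neither was called, and both had risen with Dex for 3 h over untreated cells, by 2.90 and 2.89. PER1, a circadian repressor, had 47.9 and 61.6 CPM at 3 h and 39.6 and 42.8 CPM at 7 days (log2 fold change -0.41 ± 0.13, adjusted p = 0.0234), and NR3C1, the receptor itself, had 40.5 and 44.1 CPM at 3 h and 32.6 and 32.0 CPM at 7 days (log2 fold change -0.39 ± 0.12, adjusted p = 0.0185). Both calls were lost without either 7-day library or 3 h replicate 2, with DESeq2 and with total counts as the only scaling. The fold changes over all settings were -0.59 to -0.22 and -0.49 to -0.33.

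IRS2, an insulin receptor substrate, had 84.5 and 101 against 67.4 and 56.6 CPM at 3 h and 7 days (log2 fold change -0.58 ± 0.12, adjusted p = 0.000828). SCNN1A, a subunit of the epithelial sodium channel, had 58.0 and 62.6 against 47.9 and 38.6 CPM (log2 fold change -0.48 ± 0.12, adjusted p = 0.00312). DUSP1, a MAP kinase phosphatase, had 512 and 574 against 422 and 377 CPM and GADD45B 89.4 and 89.3 against 65.2 and 68.5 CPM. They are named, after their values were seen, because with IRS2, SCNN1A and PER1 they are the 5 that were lower. DUSP1 lost its call without 7-day or 3 h replicate 2 and GADD45B without 7-day replicate 1 (-0.53 to -0.36 and -0.52 to -0.39). The 2 that were higher were ALOX15B, a lipoxygenase (2.55 and 2.08 against 5.29 and 5.27 CPM), and CIDEC, a lipid droplet protein (10.1 and 12.5 against 17.1 and 18.0 CPM), both calls lost when any 1 of the 4 libraries was left out (1.04 to 1.33 and 0.49 to 0.79 over all settings). IRS2 lost its call without 3 h replicate 2 and SCNN1A without 7-day or 3 h replicate 2 (-0.72 to -0.45 and -0.65 to -0.34). Total-count scaling called 0 members of the induced list. Of the repressed genes, 2 were higher (11.1%), the chemokines CXCL1 and CCL2, and 2 were lower, among them PTGS2 (cyclo-oxygenase). CCL2 had 2.35 and 1.04 CPM at 3 h and 4.96 and 3.10 CPM at 7 days (log2 fold change 1.24 ± 0.31, adjusted p = 0.00365), a call lost without 7-day replicate 1 or 3 h replicate 2 (0.78 to 1.94). PTGS2 had 5.00 and 5.51 against 3.20 and 2.98 CPM, a call lost when any 1 library was left out (-0.87 to -0.70).

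Taken by their own measured response, 2410 genes (10.5%) were called between Dex for 3 h and untreated cells, in libraries that the comparison of 7 days with 3 h does not use. Of the 1400 raised by Dex, 159 were higher and 156 lower at 7 days (11.4% and 11.1%), with a median of 0.01. Of the 1010 lowered by Dex, 92 were higher and 114 lower (9.11% and 11.3%), with a median of 0.00. In all, 315 of the genes raised by Dex (22.5%) and 206 of those lowered (20.4%) were called between the arms, beside 12.2% of all genes, in both directions in each set. Both sets hold genes already called in the same fit and were not matched in level to all genes. Whether the larger share has to do with the response to Dex was not tested.

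The genes for PRMT5 and its partner WDR77 were not called. PRMT5 had 6.33 and 5.82 CPM at 3 h and 6.07 and 6.30 CPM at 7 days (log2 fold change 0.02 ± 0.21, adjusted p = 0.962) and WDR77 1.84 and 3.02 CPM at 3 h and 2.21 and 2.98 CPM at 7 days (log2 fold change 0.09 ± 0.35, adjusted p = 0.905). These values concern transcription of the genes and do not measure the activity that GSK591 inhibits. Of 11 genes of the complex and of other arginine methyltransferases, 2 were called, both lower (18.2%, beside 6.35% of all genes). PRMT1, the main type I enzyme, had 42.5 and 37.7 against 28.0 and 27.7 CPM (log2 fold change -0.52 ± 0.11, adjusted p = 0.000994) and PRMT3 16.6 and 18.0 against 11.2 and 11.8 CPM (log2 fold change -0.59 ± 0.15, adjusted p = 0.00625). PRMT2 had the highest level of those not called, 29.6 and 29.5 against 33.4 and 28.2 CPM. The call of PRMT3 was lost without 7-day replicate 1 or 3 h replicate 2 (-0.69 to -0.53), and that of PRMT1 with total counts as the only scaling.

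SNRPB, an Sm core protein, had 19.0 and 21.2 CPM at 3 h and 13.8 and 14.6 CPM at 7 days (log2 fold change -0.50 ± 0.15, adjusted p = 0.0210). It was 1 of 3 members called lower of 24 spliceosomal core genes (12.5%, beside 6.35% of all genes, 0 higher, median -0.14). The others were SNRPA, a U1 protein, at 27.8 and 32.5 against 18.5 and 20.6 CPM and SNRPD3, another Sm protein, at 6.13 and 6.14 against 3.86 and 3.78 CPM. SNRPB lost its call without either 7-day library or 3 h replicate 2, with DESeq2 and with total counts as the only scaling. SNRPA did so without 7-day replicate 1 or 3 h replicate 2. The call of SNRPD3 was lost without any 1 of the 4 libraries, in the fit of the compared groups alone, with DESeq2, with the other scalings and with no filter. Fold changes over all settings were -0.61 to -0.43, -0.73 to -0.51 and -0.78 to -0.66 in that order. PRPF8, at the heart of the spliceosome, was not called at 62.2 and 65.8 against 49.6 and 61.2 CPM.

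Of 22 splicing regulators of the SR and hnRNP families, 10 were called lower (45.5%, beside 6.35% of all genes) and 0 higher, with a median of -0.48. Total counts as the only scaling called 5 lower. HNRNPD (AUF1), an RNA-binding protein, had 36.4 and 33.9 CPM at 3 h and 14.0 and 15.8 CPM at 7 days (log2 fold change -1.24 ± 0.26, adjusted p = 0.00424), a call lost without 7-day replicate 1 (-1.35 to -1.16). HNRNPA2B1 had 248 and 253 against 122 and 129.8 CPM, a call lost without any 1 library (-1.09 to -0.95). SRSF10 had 28.0 and 32.2 CPM at 3 h and 16.5 and 17.3 CPM at 7 days (log2 fold change -0.83 ± 0.15, adjusted p = 5.12e-05), and HNRNPA1 had 79.6 and 77.2 CPM at 3 h and 47.4 and 48.6 CPM at 7 days (log2 fold change -0.71 ± 0.10, adjusted p = 4.73e-07). HNRNPU was not called, though both 7-day libraries were lower (111 and 120.1 against 83.3 and 79.9 CPM).

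For ribosome biogenesis, 3 of 22 genes were called lower (13.6%, beside 6.35% of all genes) and 0 higher. They were FBL, the rRNA 2′-O-methyltransferase fibrillarin (21.8 and 21.5 against 10.0 and 11.7 CPM), NOP56, a box C/D snoRNP protein (132 and 139 against 109.8 and 97.6 CPM), and WDR12 (9.19 and 8.11 against 5.51 and 5.73 CPM). NCL, nucleolin, had the highest level of those not called, 167 and 175 against 80.4 and 86.3 CPM, and without replicate 2 of MS023 with Dex for 3 h 8 of the 22 were called lower. The call of NOP56 was lost without 7-day or 3 h replicate 2 and that of WDR12 without any 1 library (-0.48 to -0.31 and -0.72 to -0.53). Among 21 genes of polymerase pausing and elongation, POLR2A, the largest subunit of RNA polymerase II (108 and 94.5 against 88.2 and 75.4 CPM), and NELFB, of the negative elongation factor (21.5 and 23.4 against 15.3 and 17.0 CPM), were called lower (9.52%, near the 6.35% of all genes). The first lost its call without 7-day replicate 2 or 3 h replicate 1 and the second without any 1 library (-0.43 to -0.20 and -0.58 to -0.41). HEXIM1, an inhibitor of P-TEFb, was not called at 121 and 118 against 143 and 119 CPM.

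**Figure D3:**
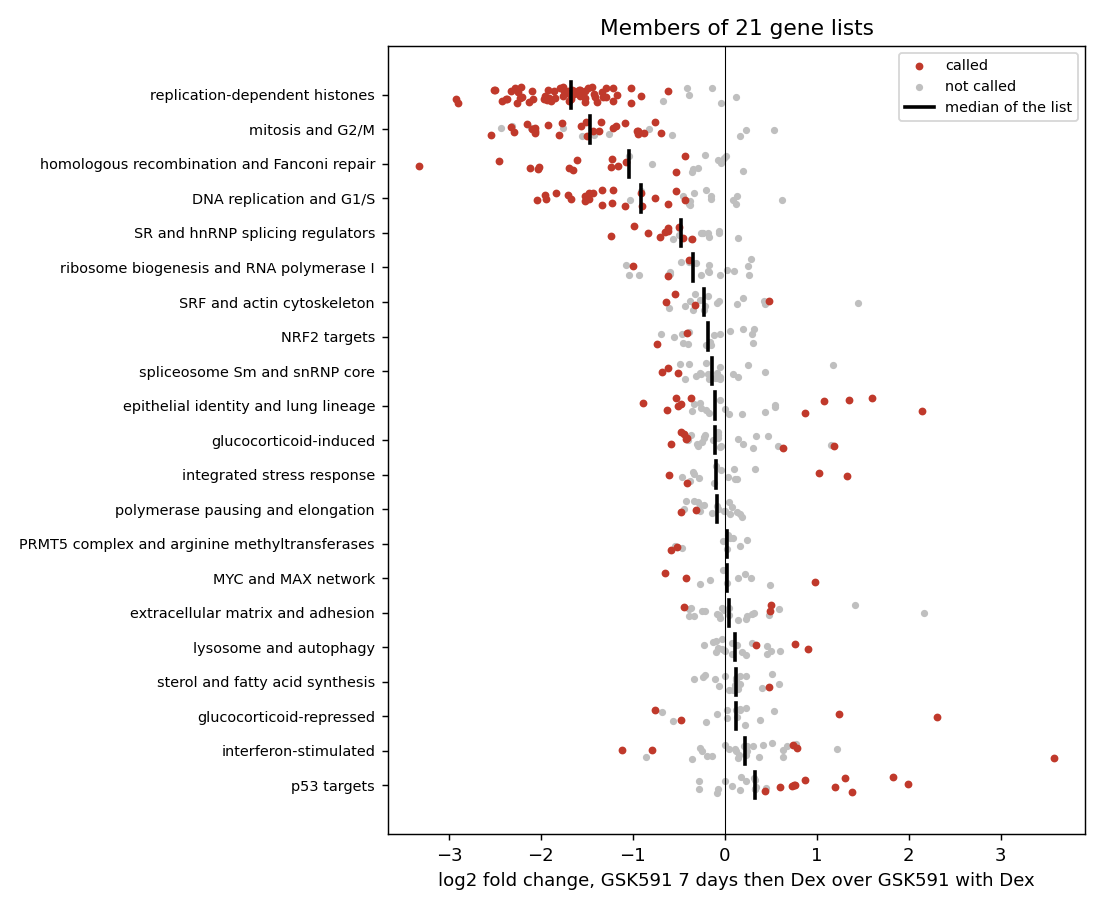
Log2 fold change (7 days over 3 h of GSK591, both with Dex) of each tested member of 21 gene lists, 1 point per gene, red where called, with the median of the list as a black bar. The histone, mitotic, repair and replication lists lie at the left with medians from -1.67 to -0.91, and p53 targets have the highest median, 0.33.

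Stress genes split. NUPR1, a stress-induced chromatin protein, had 9.39 and 9.47 CPM at 3 h and 24.0 and 23.3 CPM at 7 days (log2 fold change 1.33 ± 0.17, adjusted p = 1.87e-07) and CHAC1, a glutathione-degrading enzyme, 9.09 and 11.0 CPM at 3 h and 22.6 and 18.2 CPM at 7 days (log2 fold change 1.02 ± 0.16, adjusted p = 6.17e-06). ATF4, the central factor of the integrated stress response, had 119.9 and 125 against 88.0 and 96.4 CPM (log2 fold change -0.41 ± 0.10, adjusted p = 0.00411) and DDIT4, an mTORC1 inhibitor, 302 and 351 against 226 and 204 CPM (log2 fold change -0.60 ± 0.10, adjusted p = 2.17e-05). These 4 were the called members of 17, 11.8% in each direction beside 5.89% higher and 6.35% lower of all genes, and TRIB3 had the highest level of the others, 54.3 and 56.7 against 63.2 and 58.5 CPM. ATF4 lost its call without 7-day replicate 1 or 3 h replicate 2 (-0.51 to -0.35). Of 18 NRF2 targets, OSGIN1 (13.0 and 10.9 against 6.29 and 8.02 CPM) and PGD, of the pentose phosphate pathway (73.4 and 74.7 against 51.8 and 59.5 CPM), were lower (11.1%, beside 6.35% of all genes), and AKR1B10, an aldo-keto reductase, was not called (184 and 149 against 123 and 177 CPM). PGD lost its call without 7-day replicate 1 or either 3 h library (-0.52 to -0.32). Without replicate 2 of MS023 with Dex for 3 h, 5 NRF2 targets were called lower and 1 higher, and 4 stress genes lower and 2 higher.

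Of 30 interferon-stimulated genes, IRF1, STAT2 and TRIM22 were higher (10.0%) and IFI27 and OAS3 lower (6.67%), beside 5.89% and 6.35% of all genes. IRF1, a transcription factor, had 9.80 and 14.4 against 22.2 and 18.1 CPM and STAT2, a signal transducer, 8.07 and 5.30 against 10.4 and 12.7 CPM, and OAS3, an RNA sensor, had 14.1 and 13.7 against 8.27 and 7.79 CPM (log2 fold change -0.79 ± 0.17, adjusted p = 0.000631). IFI27 had 4.49 and 4.78 against 1.99 and 2.29 CPM, a call lost without any 1 library (-1.23 to -1.02). TRIM22, named after its value was seen, averaged under 2 CPM (0.204 and 0.312 against 2.65 and 3.78 CPM). IRF1 lost its call without 7-day or 3 h replicate 1 and STAT2 without 7-day or 3 h replicate 2 (0.48 to 1.03 and 0.51 to 1.11), and ISG20 was not called (27.9 and 33.2 against 32.5 and 33.5 CPM).

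Of 22 lysosome and autophagy genes, TFEB, their transcription factor (23.0 and 22.3 against 43.2 and 33.7 CPM), and the cathepsins CTSD (6.23 and 6.03 against 8.60 and 14.4 CPM) and CTSB (43.3 and 46.4 against 51.8 and 62.0 CPM) were higher (13.6%, beside 5.89% of all genes), and SQSTM1 was not called (89.3 and 99.0 against 82.2 and 94.0 CPM). FASN, fatty acid synthase, was the 1 of 20 lipid synthesis genes called (5.00%, near the share of all genes), higher at 119 and 119.5 against 151 and 183 CPM, and SCD, a desaturase, was not called at 69.1 and 72.5 against 92.9 and 120.2 CPM. CTSD and FASN lost their calls without 7-day replicate 2, and CTSB without that library or either 3 h library (0.48 to 1.23, 0.33 to 0.61 and 0.21 to 0.46). Total counts as the only scaling called 0 members of either list.

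Epithelial genes moved both ways, with 5 of 24 called higher (20.8%) and 6 lower (25.0%), beside 5.89% and 6.35% of all genes, and a median of -0.11. CDH1, E-cadherin, had 1.33 and 1.14 CPM at 3 h and 4.41 and 6.65 CPM at 7 days (log2 fold change 2.15 ± 0.34, adjusted p = 6.98e-06). CLDN2, a tight junction claudin, had 2.65 and 2.29 against 6.51 and 8.60 CPM (log2 fold change 1.60 ± 0.23, adjusted p = 9.64e-07), and KRT19, a keratin, 6.43 and 6.34 against 14.4 and 18.1 CPM (log2 fold change 1.35 ± 0.19, adjusted p = 6.07e-07). SFTPC, surfactant protein C, had 1.74 and 2.29 against 4.41 and 4.13 CPM, a call lost without any 1 library (0.89 to 1.29). MUC1, a mucin named after its value was seen, had 10.2 and 10.5 against 19.0 and 19.0 CPM. The 6 that were lower are likewise named after their values were seen. The keratin KRT8 had 374 and 418 CPM at 3 h and 262 and 289 CPM at 7 days (log2 fold change -0.53 ± 0.10, adjusted p = 0.000172) and the keratin KRT7 394 and 403 CPM at 3 h and 267 and 292 CPM at 7 days (log2 fold change -0.51 ± 0.09, adjusted p = 8.99e-05). KRT18, the partner of KRT8 in filaments, had 146 and 164 against 110.1 and 129.9 CPM, and KRT80 had 6.64 and 9.05 against 4.74 and 3.67 CPM. FOXA1, a pioneer factor of lung epithelium, had 19.7 and 23.7 against 16.9 and 11.2 CPM, and VIM, the mesenchymal filament vimentin, 59.8 and 57.6 against 38.6 and 45.6 CPM. KRT80 and FOXA1 lost their calls without 7-day or 3 h replicate 2, KRT18 without 7-day replicate 1 or 3 h replicate 2, and VIM without 7-day or 3 h replicate 1 (-1.11 to -0.66, -0.96 to -0.37, -0.49 to -0.26 and -0.61 to -0.37). Total counts as the only scaling called 3 of the list higher and 1 lower. ELF3, an epithelial transcription factor, was not called (129 and 129 against 111 and 103 CPM). Of 20 SRF and actin genes, 1 was called higher (5.00%) and 3 lower (15.0%), beside 5.89% and 6.35% of all genes. ACTB had 244 and 261 CPM at 3 h and 164 and 183 CPM at 7 days (log2 fold change -0.55 ± 0.11, adjusted p = 0.000457). Also lower were TAGLN2 at 25.1 and 28.0 against 15.8 and 18.2 CPM and ACTG1 at 313 and 333 against 256 and 261 CPM, while TPM2, tropomyosin, was higher at 37.6 and 41.7 against 53.7 and 57.2 CPM. Both ACTG1 and TPM2 lost their calls without any 1 library (-0.42 to -0.28 and 0.38 to 0.56). ACTB lost its call with total counts as the only scaling, and FLNA, filamin A, was not called (145 and 156 against 154 and 176 CPM). Of 25 matrix and adhesion genes, 2 were called higher (8.00%) and 1 lower (4.00%), both near the shares of all genes. COL5A1, a fibrillar collagen (19.3 and 19.6 against 27.9 and 26.6 CPM), and CTGF (CCN2), a matricellular protein (13.5 and 13.5 against 20.4 and 17.9 CPM), were higher. LAMA3, a laminin chain, was lower (32.9 and 33.5 against 21.3 and 27.4 CPM). Each of the 3 calls was lost without 7-day replicate 1 or either 3 h library (0.39 to 0.52, 0.40 to 0.59 and -0.64 to -0.28). ITGA3, an integrin chain, was not called (112 and 112 against 125 and 138 CPM). In the MYC and MAX network, MXD4, an antagonist of MYC, had 11.6 and 13.0 CPM at 3 h and 25.8 and 22.7 CPM at 7 days (log2 fold change 0.98 ± 0.17, adjusted p = 2.73e-05), while MXD3 fell by 0.64. MYC had 68.8 and 74.2 against 59.8 and 47.3 CPM and was also called lower, a call lost without 7-day or 3 h replicate 2 and with total counts (-0.60 to -0.26). They were the 3 called members of 11, 9.09% higher and 18.2% lower, beside 5.89% and 6.35% of all genes. MLX was not called (36.8 and 31.0 against 35.1 and 32.0 CPM).

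The effect of 7 days of GSK591 was also measured without Dex, in 4 other libraries. Between 7 days of GSK591 and untreated cells 3026 genes (13.2%) were called, 1532 higher (6.68%) and 1494 lower (6.52%). Of the 1532 higher there, 633 were called higher and 5 lower under Dex. These are 41.3% and 0.326%, beside 5.89% and 6.35% of all genes, and the median under Dex was 0.58. The 5, named after their values were seen, were SAMD4A, PIM1, IRF2BP2, FBXO46 and LBH. Of the 1494 lower there, 794 were called lower (53.1%, beside 6.35% of all genes) and 0 higher under Dex, with a median of -0.55. Over all genes tested, 15858 of 22919 had the same sign in both comparisons. Of the 22919, 11591 were positive under Dex and 11372 without it. List medians without Dex were -1.44 for mitosis, -1.33 for replication, -1.20 for repair and 0.44 for p53 targets, beside -1.47, -0.91, -1.05 and 0.33 under Dex. CPM rose by 3.12 without and 3.09 with Dex, and C3 by 2.62 and 2.44.

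A test of the difference between both effects of duration called 73 genes (0.319%), 12 higher (0.0524%) and 61 lower (0.266%) under Dex, with 1940 at an unadjusted p below 0.05. Histone genes were 12 of the 61: -0.97 was their median without Dex and -1.67 with it, and the median difference was -0.69. HIST1H2BB fell by 1.05 without Dex and by 2.92 with it (difference -1.87 ± 0.32, adjusted p = 0.000829), and HIST1H3B by 1.52 and 2.38 (difference -0.86 ± 0.17, adjusted p = 0.00730). The summed histone level was 2961 and 3383 CPM in untreated cells, 3629 and 3503 CPM with Dex for 3 h, 1509 and 1531 CPM with GSK591 for 7 days alone and 1258 and 1117 CPM once Dex followed. Both groups with Dex for 3 h and no long treatment thus lay above the untreated libraries, and both 7-day libraries with Dex for 3 h lay below those without it. With Dex for 15 min and no inhibitor the sum was 3128 and 3160 CPM, inside the range of the untreated libraries, and with Dex for 15 min after 7 days of GSK591 it was 1467 and 1247 CPM. The reference arms also differ in GSK591 itself, present for 3 h under Dex and absent in untreated cells. They differ in time as well, as the untreated libraries are titled 15 min. The 73 calls held no member of the mitotic or replication lists, whose median differences were 0.00 and 0.27. In simulated data this test called 12.7% of log2 changes of 1, so a missing call does not show equal effects. ACTB had 127 and 128 CPM in untreated cells and 127 and 169.5 CPM after 7 days without Dex, and differed by -0.76 ± 0.16 (adjusted p = 0.0130). The largest positive difference at 5 CPM or more was that of AC026461.3 (1.68), a long non-coding RNA, followed by ADAMTS15, a matrix protease (1.33), CYP26B1, which degrades retinoic acid (1.26), PSD (1.20) and RAD51C, a recombination factor (1.09). Beside HIST1H2BB, the largest negative ones were HRCT1 (-1.64), the pseudogene KRT18P37 (-1.51), CNN2, a calponin (-1.47), and C1orf116 (-1.44). This test rests on 8 libraries, and leaving out 1 of them gave 13 to 91 genes, the lowest without 3 h replicate 2. Total-count scaling called 0, with 982 at an unadjusted p below 0.05.

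**Figure D4:**
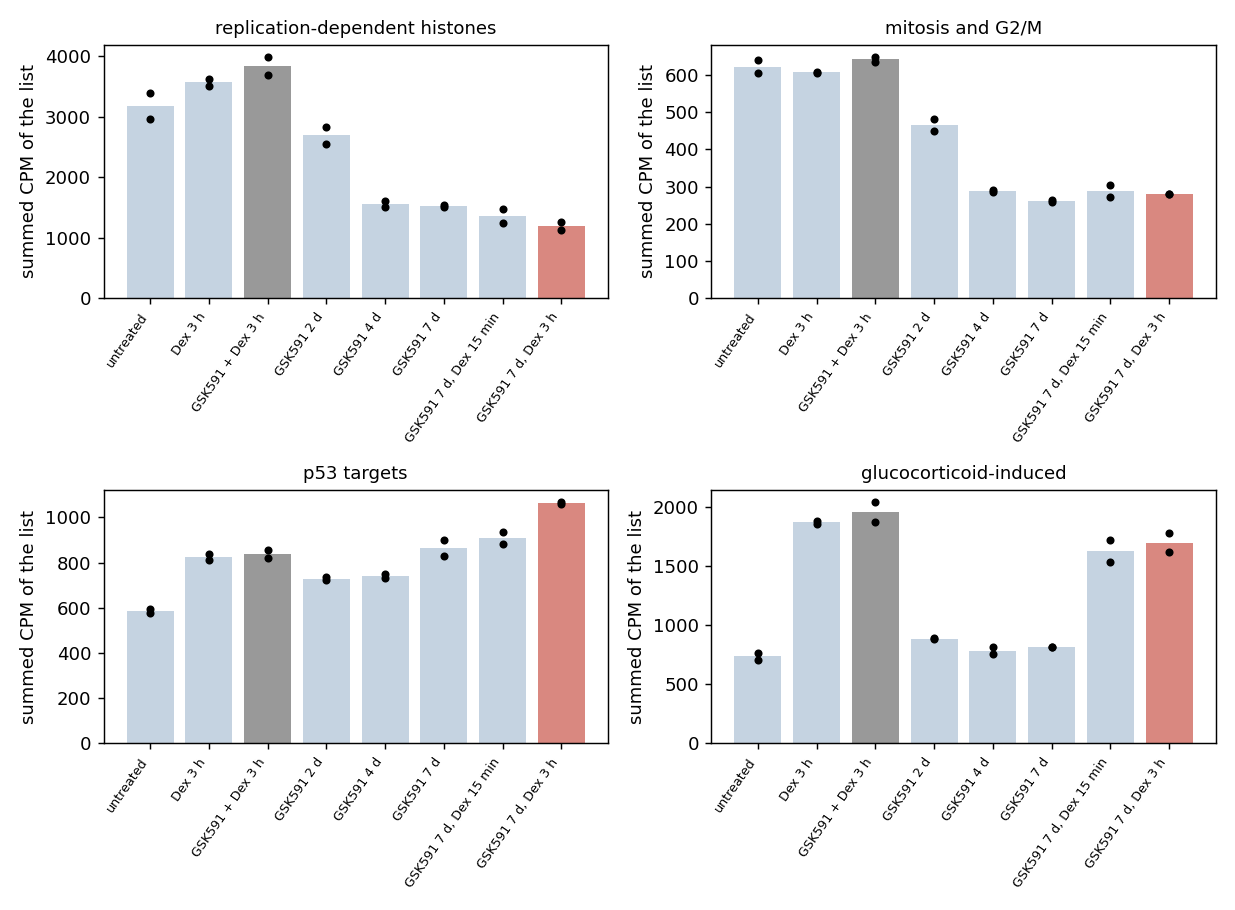
Summed CPM of 4 gene lists in 8 groups of 2 libraries each, with points for the libraries and bars for their mean, the 3 h arm in dark grey and the 7-day arm in red. Histone and mitotic sums are lowest in groups with 4 or 7 days of GSK591, while the glucocorticoid-induced sum, 1881 and 2047 CPM at 3 h and 1781 and 1619 CPM at 7 days, is high in the groups with Dex.

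Groups with shorter GSK591 treatment lay between untreated cells and the 7-day groups for the histone sum at 2 days and near the latter at 4 days. The histone sum was 2543 and 2834 CPM after 2 days and 1500 and 1598 CPM after 4 days without Dex, and the mitotic sum 483 and 450 CPM and then 290 and 285 CPM, beside 639 and 604 CPM in untreated cells and 260 and 264 CPM after 7 days. The p53 target sum was 576 and 595 CPM in untreated cells, 809 and 837 CPM with Dex for 3 h, 829 and 901 CPM after 7 days of GSK591 and 1068 and 1058 CPM where both were given.

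MS023, which blocks the enzymes that place asymmetric marks, gave the matched comparison, 7 days then Dex against 3 h with Dex. In it 3773 genes were called (16.5%), 1704 higher (7.43%) and 2069 lower (9.03%). Of the 1704 higher with MS023, 419 were called higher and 24 lower with GSK591 (24.6% and 1.41%), and of the 2069 lower, 621 were lower and 35 higher (30.0% and 1.69%). Of all genes, 5.89% were called higher and 6.35% lower with GSK591. The test of the difference between the inhibitors called 689 genes (3.01%), 341 higher (1.49%) and 348 lower (1.52%) with GSK591. Of 66 histone genes, 39 passed it, all lower with GSK591, with medians of -1.67 for GSK591, -0.77 for MS023 and -0.93 for the difference. The histone sum was 4310 and 3693 CPM at 3 h and 2176 and 2626 CPM at 7 days with MS023. Without replicate 2 of MS023 with Dex for 3 h, the library with the high mitotic sum, the histone median of the difference was -0.86. Under total-count scaling 55 histone genes passed, but that scaling called 2328 genes lower and 35 higher in all. The histone median for MS023 was then -0.24, with 9 members called lower and 1 higher. RRM2 differed by -1.06 ± 0.17 (adjusted p = 4.72e-05) and E2F8 by -1.66 ± 0.38 (adjusted p = 0.00538), both lower with GSK591. With MS023 RRM2 was called lower (-0.65), while E2F8 was not called (-0.28). The medians of the mitotic list were -1.47 with GSK591 and -1.04 with MS023, the latter -0.51 without the library with the high mitotic sum, and 4 of 38 members passed the test of the difference. Of these, named after their values were seen, AURKB, BIRC5 and KIF20A were lower and CCNB2 was higher with GSK591.

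Matrix and cytoskeletal genes differed between the inhibitors in the other direction, though not under total-count scaling, which called 0 higher and 1 lower in each of both lists. Of 25 matrix and adhesion genes, 7 were higher with GSK591 in the difference and 0 lower, beside 1.49% and 1.52% of all genes. Medians were 0.04 for GSK591 and -0.69 for MS023, with 0.91 for the difference. ITGA3 did not pass with GSK591 (0.23) and fell by 0.88 with MS023 (difference 1.11 ± 0.14, adjusted p = 3.53e-07), and COL5A1 rose by 0.49 and fell by 0.78 (difference 1.27 ± 0.20, adjusted p = 3.62e-05). FLNA was at 0.14 with GSK591 and -0.94 with MS023 (difference 1.08 ± 0.17). It was 1 of 5 of 20 SRF and actin genes that were higher with GSK591, the others being MYL9, TPM1, TPM4 and TPM2, named after their values were seen. Without replicate 2 of MS023 with Dex for 3 h the counts were 6 and 2. The matrix medians were then -0.39 for MS023 and 0.42 for the difference, and those of the SRF and actin list moved from -0.73 to -0.48 and from 0.64 to 0.36.

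Among single genes, C3 and CNR1 rose by 2.44 and 2.40 with GSK591 and were at 0.00 with MS023 (differences 2.44 ± 0.36 and 2.40 ± 0.41, adjusted p = 1.28e-05 and 0.000127). CPM rose by 3.09 with GSK591 and 1.25 with MS023, and MDM2 by 1.31 and 0.63, both differences passing the test (adjusted p = 8.5e-07 and 0.00558). NUPR1 rose less with GSK591 (1.33) than with MS023 (3.19), as did CCL2 (1.24 against 3.10). HILPDA, a lipid droplet protein, fell by 0.47 with GSK591 and rose by 1.38 with MS023. The call of its fall was lost without 7-day replicate 2 or 3 h replicate 1, with DESeq2 and with total counts (-0.61 to -0.35). LILRB3, an inhibitory leukocyte receptor, fell by 1.77 and rose by 0.49. FOXQ1, a forkhead factor, rose by 0.68 and fell by 1.35, though its call with GSK591 was lost without any 1 of its 4 libraries (0.59 to 0.77). STAB2, a scavenger receptor, was at 0.44 with GSK591, which missed the threshold, and -1.44 with MS023. MEG3, an imprinted long non-coding RNA, had 5.00 and 3.33 CPM at 3 h and 8.05 and 20.1 CPM at 7 days and lost its call without 7-day or 3 h replicate 2 and in the fit of the compared groups alone (0.94 to 2.26). The inhibitors also differed in scaling: under total counts alone the median of all genes was 0.51 for MS023 and -0.61 for the difference, so directions here are relative to the typical gene.

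**Figure D5:**
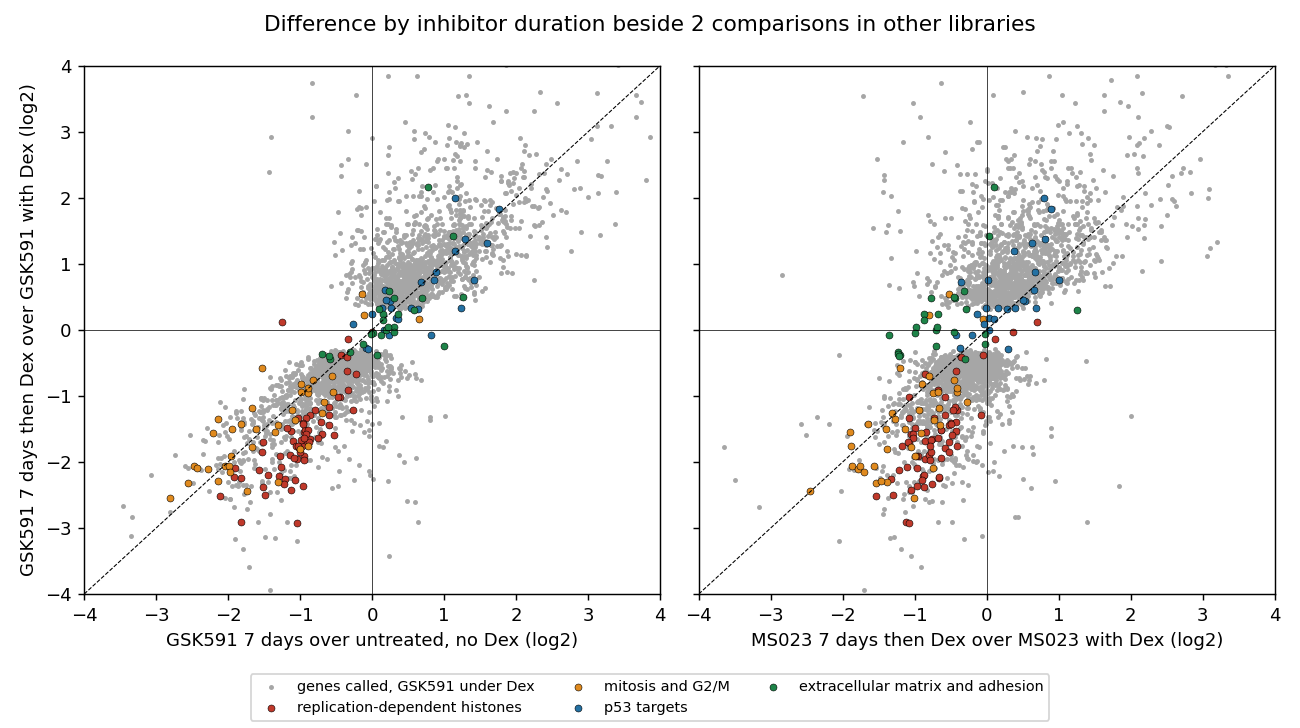
Log2 fold change of 7 days over 3 h of GSK591 under Dex (vertical axis) against that of 7 days of GSK591 over untreated cells (left) and of 7 days over 3 h of MS023 under Dex (right), for genes called in the first (grey) and for 4 lists (colours). Axes end at 4 in both directions and genes beyond are not drawn. Histone genes mostly lie below the dashed line of equal change on both sides, and matrix genes mostly lie left of 0 on the right-hand side.

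The authors' deposited tables, which compare each arm with untreated cells, gave SNRPB a log2 fold change of -0.88 after 7 days then Dex and -0.10 after 3 h with Dex. Of the 2806 genes called here, 2007 were in both of the authors' deposited tables, and for 1855 the difference between the authors' 2 values had the sign found here. These values come from the same study, so equal signs are not independent support. Sizes and calls could differ. For the gene CPM the authors' values were 1.95 and 0.64, a smaller gap than the 3.09 found here. For CDT1, not called here, they were -1.61 and -0.008. CENPA, not called here (0.17), had -0.45 and 0.33 in the authors' values, so there it was lower at 7 days. The genes CPM, CDT1 and CENPA are named after their values were seen.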

How the data were processed

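PRO-seq counts per gene were deposited by the authors as 1 table of 58780 genes and 30 libraries, made with Subread and featureCounts 2.0.1 on hg38, per the submitters' processing notes. The feature counted and the use of strand are not given in the sources used here. All IDs matched GENCODE release 29. The authors' deposited tables give log2 fold changes of each group against untreated cells and adjusted p-values, with column names of DESeq2 per the file headers. Only their log2 values were used, for the sign of the difference between the arms and for SNRPB, CDT1, CENPA and the gene CPM. The adjusted p-values deposited by the authors were read and support nothing here.

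Genes were kept by edgeR's filterByExpr (minimum count 10, minimum total 15), scaled by TMM and fitted with the robust quasi-likelihood model of edgeR 4.0.16 in R 4.3.3, all 15 groups in 1 fit with 15 residual degrees of freedom, and tested with Benjamini-Hochberg adjustment at 0.05 over all genes tested. Differences between 2 effects were tested as contrasts of that fit. Each standard error was derived from the size of the fold change and its F statistic (size divided by the root of F). DESeq2 1.42.0, other scalings, no filter, no mitochondrial or ribosomal RNA genes, a replicate block, the compared groups alone and leaving out each replicate were the alternatives. The fit was tested on simulated data first, with log2 changes of 0.5, 1 and 2. Between the arms 11.3%, 31.7% and 84.4% of these were called, and 3.57% of calls were false. For the difference with and without Dex they were 1.61%, 12.7% and 62.5%, and 9.26% of calls were false, above the threshold. For the difference from MS023 they were 4.84%, 15.9% and 60.9%, and 5.45% of calls were false.

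Named genes were PRMT5, WDR77, SNRPB, NR3C1, FKBP5, TSC22D3 and PER1. To these were added the 12 largest called rises and 12 largest called falls of protein-coding genes, and 3 each way of other types, with a mean of at least 5 CPM and groups that did not overlap. Each gene list gave up to 4 called members of at least 2 CPM with the largest change and the highest member not called, and each test of a difference the 5 largest each way at 5 CPM or more. The comparison, the lists and these rules were chosen with earlier results of these data known. Promoters are those of RefSeq for GRCh38.p14, the first listed for each gene. Some named genes are not reported here.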

Additional observations from a re-analysis of the deposited data

Results flagged for a closer look

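For some of the genes described, a test found that the effect of GSK591 duration under Dex differed from another effect of duration. Values are differences of log2 fold changes from edgeR's quasi-likelihood fit, positive where the effect was higher under GSK591 with Dex. With Dex against without Dex, the histone genes that fell further under Dex were HIST1H2BB (-1.87), HIST1H2AB (-1.41), HIST1H2AJ (-1.01) and HIST1H3B (-0.86). Other genes lower under Dex were HRCT1 (-1.64), KRT18P37 (-1.51), CNN2 (-1.47), C1orf116 (-1.44) and ACTB (-0.76). Those higher under Dex were AC026461.3 (1.68), ADAMTS15 (1.33), CYP26B1 (1.26), PSD (1.20) and RAD51C (1.09).

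Against MS023, the histone genes that were lower with GSK591 were HIST1H2BB (-1.84), HIST1H1B (-1.79), HIST1H2AL (-1.57), HIST1H3B (-1.501), HIST1H2AB (-1.41), HIST1H4PS1 (-1.37), HIST1H2AJ (-1.20) and HIST1H4I (-0.97). Other genes lower with GSK591 in the difference were LILRB3 (-2.26), NUPR1 (-1.87), CCL2 (-1.86), HILPDA (-1.85), E2F8 (-1.66), AC239868.1 (-1.53), BARD1 (-1.43), CKAP2L (-1.41), KIFC1 (-1.39), PIF1 (-1.28), XRCC2 (-1.27), RRM2 (-1.06), MCM5 (-0.89), ELF3 (-0.77), DDIT4 (-0.61) and NR3C1 (-0.54). Genes higher with GSK591 were MEG3 (2.56), C3 (2.44), CNR1 (2.40), FOXQ1 (2.04), CXCL1 (1.91), STAB2 (1.88), AC011247.3 (1.84), CPM (1.84), CDH1 (1.81), MR1 (1.75), ABCA1 (1.502), COL5A1 (1.27), KRT19 (1.23), CYP3A5 (1.20), ITGA3 (1.11), FLNA (1.08), TPM2 (1.07), CTGF (0.96), DKK1 (0.89), MXD4 (0.83), MDM2 (0.68), CTSB (0.61) and FASN (0.50). Under total-count scaling the median of this difference over all genes moved to -0.61, so these directions are relative to the typical gene. The contrast with MS023 also rests on replicate 2 of MS023 with Dex for 3 h, which stood apart from its replicate (r = 0.926). Without it 603 genes passed in place of 689, and 416 of them were shared.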

How the results depend on the processing

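Called counts for GSK591 7 days against 3 h under Dex were 2806 as reported, 1581 with DESeq2, 1102 with total counts as the only scaling, 1334 to 1769 when 1 of its libraries was left out and 3210 without replicate 2 of MS023 with Dex for 3 h (added after seeing the data). With the replicate block the count was 2861, of which 2796 were shared, and the sign and call of the 134 named genes held. Same-numbered samples of the 2 groups did not deviate together (correlation -0.07), so numbers were not taken as pairs. Without Dex, 3026 became 1755 with DESeq2, 1135 with total counts, 1574 to 1760 with 1 library left out and 3488 without that MS023 library. For MS023, 3773 became 292 in a fit of its groups alone, 2002 with DESeq2, 6285 with total counts (6065 higher, 220 lower, median 0.51) and 1659 to 4719 with 1 library left out. The difference with and without Dex, 73, became 142 in its groups alone, 114 with no filter, 0 with total counts, 13 to 91 with 1 library left out and 111 without that MS023 library. The difference from MS023, 689, became 190 in its groups alone, 334 with DESeq2, 2363 with total counts (35 higher, 2328 lower) and 356 to 1554 with 1 library left out. Dex alone, 2410, became 1449 with DESeq2, 1259 with total counts, 1355 to 1664 with 1 library left out and 2836 without that MS023 library. The cause was not tested, beyond the smaller number of samples. Of the 134 named genes, 36 lost their call with total counts, 20 with DESeq2 and 23 to 35 with 1 of the 4 libraries left out, and 0 changed sign while called. With 2707054 to 3038755 nuclear counts and 2 libraries per group, a gene that was not called is not shown to be unchanged.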
